A study of Mus musculus with 10 samples.

Results

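The genes described here encode regulators of pre-mRNA splicing: SR proteins (Srsf genes), heterogeneous nuclear ribonucleoproteins (hnRNPs, Hnrnp genes) and the Rbfox, Celf, Nova, Ptbp and Mbnl families. They were chosen by their gene symbols in the deposited table, and by a normalised count of 10 or more in 5 or more of the 10 libraries. The rule gave 47 genes of 31510 in the table and of the 17556 that passed the filter: 11 SR, 19 hnRNP, 3 Rbfox, 6 Celf, 2 Nova, 3 Ptbp and 3 Mbnl genes. All 47 symbols of this form passed the filter. The lowest was Mbnl3, at 29.1 to 50.5 normalised counts, followed by Srsf12 at 763 to 881, and none lay under it. Hnrnpa2b1, whose symbol has another form, is counted among the other splicing genes below.

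The samples are bulk RNA-seq libraries of the micro-dissected hippocampus of 10 male APP/PS1 mice, a strain whose transgenes drive amyloid deposition in the brain. At an age of 8 months, 5 mice received AAV8-Irisin-FLAG by tail vein injection (called AAV8-irisin) and 5 received AAV8-GFP, and tissue was taken 2 months later. The vector was meant to make the liver release irisin, the exercise-linked fragment of the Fndc5 protein, and so to raise irisin in the circulation, and no irisin level is part of the data used here. Both groups carry the APP/PS1 transgenes and both received a viral vector, and no mice without either are part of the comparison, which asks whether peripheral irisin altered the hippocampal transcriptome.

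SR proteins bind exonic enhancers through RNA recognition motifs and recruit the spliceosome through domains rich in arginine and serine. hnRNP proteins coat nascent transcripts and often, though not always, oppose exon inclusion. The other families hold factors of neurons and muscle, and some members, such as Ptbp1 and Rbfox2, act outside neurons too. Rbfox proteins bind UGCAUG elements, and Nova proteins bind clusters of short pyrimidine-CA-pyrimidine elements. Ptbp proteins bind pyrimidine tracts and repress neuronal exons. Mbnl and Celf proteins act on many of the same exons in opposite directions. Many of these genes control their own level through exons or retained introns that send the transcript to nonsense-mediated decay, the pathway that removes messages with early stop codons. A count per gene sums all isoforms, so it shows the amount of RNA of a splicing factor and not its splicing, its protein or its activity.

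Values are the authors' DESeq2-normalised counts, which bring libraries to a common size but not genes to a common length. The library totals were 35284321 to 36623029 normalised counts. Taking the most frequent low value of a library as 1 read puts the depth near 30704436 to 41510048 reads. Only 63.2% to 78.2% of low values then came out whole (within 0.1 of a read), so reads were not recovered and this depth is an estimate. The library of AAV8-GFP mouse 1 stood apart from the other libraries. Its median absolute deviation from the mean of each gene was 0.129 on the log2 scale over all genes tested, where the other 9 libraries had 0.0681 to 0.0857. For genes given mouse by mouse, the difference without this mouse stands beside the full one wherever it moved by over 1.5 times. Neuronal marker genes (Snap25, Syt1, Tubb3, Map2, Stmn2 and Syp) were abundant in every library, and so were Prox1, C1ql2, Wfs1, Fibcd1, Grik4 and Neurod6, which mark hippocampal granule and pyramidal cells.

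Promoter windows are shown for Srsf9 and Nova2, the 2 genes with the smallest unadjusted p, and for Mbnl2. Mbnl2 had the smallest p among genes with a higher mean, and the 3 windows were not chosen as typical of the 47 genes. Each runs from 250 bases before to 50 after the RefSeq start, 5′ to 3′ on the strand of the gene, on GRCm38.p6, at chr5:115326927-115327226 (plus strand), chr7:18925638-18925937 (plus strand) and chr14:120275419-120275718 (plus strand). Capitals mark matches, on either strand, to the TATA, CCAAT and GC boxes and the cAMP response element, whose letters are given below, and no matches overlap in these 3 windows.
Srsf9: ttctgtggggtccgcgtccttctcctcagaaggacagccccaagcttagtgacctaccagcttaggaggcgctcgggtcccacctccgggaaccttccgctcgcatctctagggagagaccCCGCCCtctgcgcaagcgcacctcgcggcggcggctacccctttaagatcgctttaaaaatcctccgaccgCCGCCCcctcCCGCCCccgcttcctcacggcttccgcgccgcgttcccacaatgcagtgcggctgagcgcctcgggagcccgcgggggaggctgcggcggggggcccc
Nova2: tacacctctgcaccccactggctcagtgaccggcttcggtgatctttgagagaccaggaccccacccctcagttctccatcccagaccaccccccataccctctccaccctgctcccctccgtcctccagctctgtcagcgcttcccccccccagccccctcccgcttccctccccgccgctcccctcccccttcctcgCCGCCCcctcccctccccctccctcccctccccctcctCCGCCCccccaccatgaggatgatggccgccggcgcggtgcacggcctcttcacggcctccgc
Mbnl2: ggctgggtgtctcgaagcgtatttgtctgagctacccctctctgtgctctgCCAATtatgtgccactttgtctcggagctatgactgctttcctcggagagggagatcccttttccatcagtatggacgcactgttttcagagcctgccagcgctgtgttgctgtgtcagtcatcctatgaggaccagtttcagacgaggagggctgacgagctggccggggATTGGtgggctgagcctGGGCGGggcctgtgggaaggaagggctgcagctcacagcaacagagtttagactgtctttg
The Srsf9 window held 3 GC boxes and the Nova2 window 2, with no other motif, and the Mbnl2 window held 2 CCAAT boxes and 1 GC box. GC content was 69.0%, 71.3% and 56.3% for Srsf9, Nova2 and Mbnl2, and the ratio of observed to expected CpG was 0.920, 0.640 and 0.430. Of the 47 genes, 42 matched a RefSeq window by symbol, and for each the window nearest its annotated start was taken. The median GC content of these 42 windows was 64.2%, and the ratio of observed to expected CpG was 0.885. Over the 16531 windows of genes that passed the filter the same medians were 59.7% and 0.701. Those windows belong to 12969 genes, some with more than 1 start, so the sets are not alike in this. A GC box (GGGCGG) was present in 71.4% of the 42 windows (30 windows), against 56.9% of windows of genes that passed the filter and 35.7% of all 32851 windows. A CCAAT box, by those letters, was in 47.6%, against 37.2% and 37.4%. A TATA box (TATAAA) was in 16.7% (7 windows), against 7.97% and 13.6%. The cAMP response element (TGACGTCA) was in 2.38% (1 window), against 2.72% and 1.79%. These matches are letters in a window, described without a test.

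At the threshold used, no splicing factor gene separated the AAV8-irisin from the AAV8-GFP hippocampi. Groups were compared with limma, a linear model that shares information on the spread across genes, on log2(normalised count + 1), and p-values were adjusted by Benjamini-Hochberg over all genes tested. By this test 0 of 47 passed an adjusted p of 0.05, where 0% of the 17556 genes tested did, and the smallest adjusted p of the 47 was 0.942. An unadjusted p under 0.05 was found for 2 of 47, Srsf9 and Nova2, both with a lower mean in AAV8-irisin. Of all genes tested, 4.49% had such a p, 2.21% with a lower and 2.28% with a higher mean, so 2 of 47 is close to the share of all genes. In no gene of the 47 did the 5 mice of AAV8-irisin lie wholly above or below the 5 of AAV8-GFP, where 0.803% of all genes tested had groups that did not overlap. In bulk tissue, fewer cells of a type and less RNA per cell cannot be told apart.

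The intervals bounded the differences closely. The median log2 difference was −0.0051 over the 47 genes and 0.00099 over all genes tested, and 21 of 47 had a higher and 26 a lower mean in AAV8-irisin. Single differences lay between −0.13 (Srsf9) and 0.10 (Nova1). For 45 of the 47 genes the 95% interval of the difference lay within a 1.2-fold change in either direction, a bound chosen after the values were seen. The exceptions were Nova1 and Mbnl3, whose intervals ran from −0.090 to 0.30 and from −0.33 to 0.39. The same held for 56.9% of all genes tested and for 94.9% of the 6771 genes with a mean of at least 1000 normalised counts. Within the narrower bound of 1.1-fold lay the intervals of 34 of the 44 splicing factor genes with such a mean, or 77.3%, beside 49.9% of all genes with such a mean. Their SD over the 10 mice had a median of 0.0551 on the log2 scale, and that of all genes with such a mean was 0.0746. These sets were not matched for abundance above that mean.

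**Figure D1:**
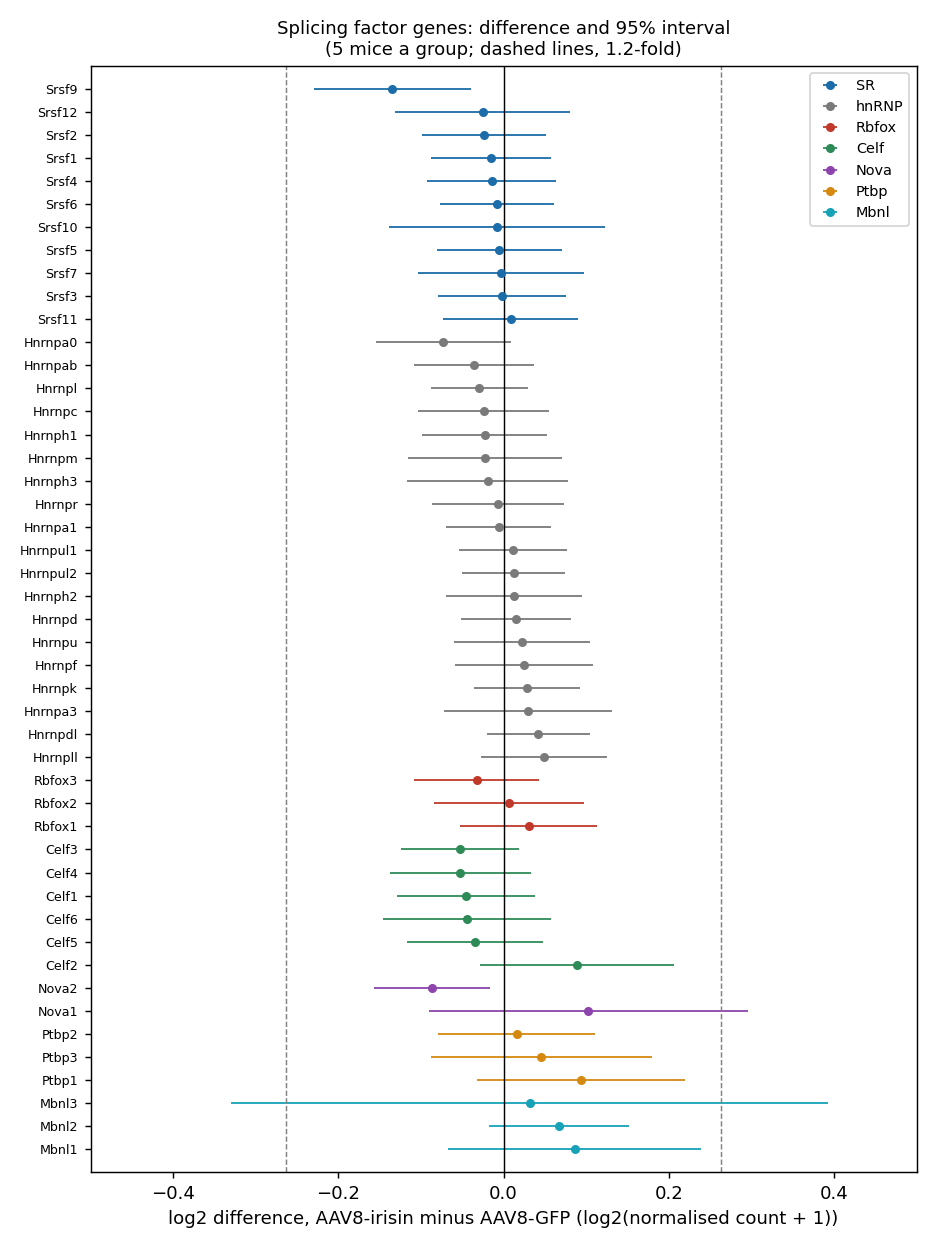
Log2 difference (AAV8-irisin minus AAV8-GFP, horizontal axis, log2(normalised count + 1) scale) of the 47 genes in rows by family, with points for the limma estimate, bars for its 95% interval (5 mice a group) and dashed lines at a 1.2-fold change. Only the bars of Srsf9 and Nova2 do not cross 0, and those of Nova1 and Mbnl3 cross a dashed line.

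Among SR genes the means of the groups were nearly equal, with Srsf9 the farthest from equality. Srsf9 (ENSMUSG00000029538.14, chromosome 5, 115327177 to 115333080, plus strand, GENCODE M21 on mm10) encodes a relative of Srsf1 with a short arginine-serine domain. It had 1538, 1649, 1645, 1645 and 1601 normalised counts in AAV8-irisin mice 1 to 5, against 1891, 1638, 1820.0, 1747 and 1781 in AAV8-GFP mice 1 to 5. The AAV8-irisin mice filled the low end, and AAV8-GFP mouse 2 lay among them. The means were 1616 ± 47.6 normalised counts in AAV8-irisin and 1775 ± 93.4 in AAV8-GFP (SD, n = 5 each), and the log2 difference was −0.13 ± 0.044 (SE; 95% interval −0.23 to −0.040; limma, adjusted p = 0.942). Without AAV8-GFP mouse 1, the highest of the 10, the log2 difference was −0.11 (limma, adjusted p = 0.982). None of its annotated exons overlaps another gene, and none of its 50-base stretches occurs in another annotated transcript.

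The other SR genes had log2 differences between −0.025 (Srsf12) and 0.0086 (Srsf11), none with an unadjusted p under 0.05. In all, 10 of 11 were lower on average in AAV8-irisin (median log2 difference −0.0077). Apart from Srsf9, each difference was smaller than its SE. Without one mouse at a time, between 7 and 11 of 11 had a lower mean. Srsf5, a small SR protein gene and the most abundant of the family per length, had 10853, 10646, 10433, 10201 and 10000.0 normalised counts in AAV8-irisin mice 1 to 5, against 9730.1, 10571, 10813, 10691 and 10529 in AAV8-GFP mice 1 to 5. The groups overlapped, AAV8-GFP mouse 1 was the lowest, and the log2 difference was −0.0051 (SE 0.035) with all mice and −0.031 without that mouse. Srsf10, which represses splicing when it loses its phosphates under heat shock, had 2230.3, 2239, 2481, 2158 and 2352 normalised counts in AAV8-irisin mice 1 to 5, against 2059, 2197, 2444, 2233 and 2616 in AAV8-GFP mice 1 to 5. It had the largest spread of the family over the 10 mice, at 0.105 on the log2 scale, and AAV8-GFP mice 1 and 5 held its lowest and its highest value. Its log2 difference was −0.0076 with all mice, −0.048 without AAV8-GFP mouse 1 and 0.038 without AAV8-GFP mouse 5. Log2 differences were −0.015 for Srsf1, the founding member of the family, −0.024 for Srsf2, which marks nuclear speckles, −0.0023 for Srsf3, which also links messages to nuclear export, −0.014 for Srsf4, −0.0077 for Srsf6 and −0.0035 for Srsf7, an SR protein with a zinc knuckle. Srsf11, which promotes neuronal microexons, had 5811 ± 121 normalised counts in AAV8-irisin and 5782 ± 308 in AAV8-GFP (SD, n = 5 each).

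The hnRNP genes divided into 10 higher and 9 lower on average in AAV8-irisin (median log2 difference 0.012). Without AAV8-GFP mouse 1 the same median was −0.011, with 5 of 19 higher. Hnrnpa0 (ENSMUSG00000007836.6, chromosome 13, 58125879 to 58128556, minus strand), an intronless hnRNP A/B gene whose protein binds AU-rich elements, had 6796, 6661, 7004, 6925 and 6804 normalised counts in AAV8-irisin mice 1 to 5, against 7928, 7031, 7152, 6927 and 6962 in AAV8-GFP mice 1 to 5. AAV8-GFP mouse 1 lay far above the other 9, and 4 of 5 AAV8-irisin values were under the AAV8-GFP minimum. The means were 6838 ± 132 normalised counts in AAV8-irisin and 7199.9 ± 416 in AAV8-GFP (SD, n = 5 each), and the log2 difference was −0.073 ± 0.038 (SE; 95% interval −0.15 to 0.0094; limma, adjusted p = 0.942). Leaving that mouse out gave a log2 difference of −0.038. Hnrnpll, known for the alternative splicing of CD45 in lymphocytes, had 2827, 2924, 2793, 2899 and 2906 normalised counts in AAV8-irisin mice 1 to 5, against 2600.1, 2804, 2786, 2857 and 2828 in AAV8-GFP mice 1 to 5. Mouse 1 was the lowest of AAV8-GFP by a wide gap, and 3 of 5 AAV8-irisin values were over the AAV8-GFP maximum. Its log2 difference was 0.049 with all mice (limma, adjusted p = 0.942) and 0.026 without AAV8-GFP mouse 1. Hnrnpdl, a relative of the RNA decay factor Hnrnpd, had 7591, 7817, 7605, 8006 and 7623 normalised counts in AAV8-irisin mice 1 to 5, against 7476, 7557, 7741, 7437 and 7314 in AAV8-GFP mice 1 to 5. The 2 highest values were in AAV8-irisin and the lowest in AAV8-GFP mouse 5, with a log2 difference of 0.042 (limma, adjusted p = 0.942).

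Hnrnpa1, the best known repressor among hnRNPs and the gene of highest level per length, had 10142, 10014, 9696, 9869.6 and 9892 normalised counts in AAV8-irisin mice 1 to 5, against 9490.4, 9948, 10274, 10139 and 9978 in AAV8-GFP mice 1 to 5. All 5 AAV8-irisin values lay inside the AAV8-GFP range, with a log2 difference of −0.0059 and a 95% interval of −0.069 to 0.057, or −0.023 without AAV8-GFP mouse 1. Of its 50-base stretches, 28.2% also occur in other annotated genes, so its value is uncertain. Hnrnpa3, a close relative, had the largest spread over 10 mice of the family (0.0830 on the log2 scale). It had 12958, 13052, 11981, 11927 and 13003 normalised counts in AAV8-irisin mice 1 to 5, against 10918, 12856, 12357, 12498 and 13078 in AAV8-GFP mice 1 to 5, with AAV8-GFP mouse 1 the lowest of the 10. Its log2 difference was 0.030 with all mice and −0.014 without that mouse, and it shares 27.1% of its 50-base stretches with other genes. Log2 differences of the other members ran from −0.036 for Hnrnpab to 0.028 for Hnrnpk, which binds C-rich RNA. They were −0.024 for Hnrnpc, which binds U tracts, −0.029 for Hnrnpl, which binds CA repeats, 0.022 for Hnrnpu, which anchors RNA to the nuclear scaffold, −0.022 for Hnrnpm and −0.0065 for Hnrnpr. The factors of G runs had 0.025 (Hnrnpf), −0.023 (Hnrnph1), 0.013 (Hnrnph2) and −0.019 (Hnrnph3), and the log2 differences of Hnrnpd, Hnrnpul1 and Hnrnpul2 were 0.015, 0.012 and 0.012. Hnrnpl had the smallest spread of all 47 genes, with 7693 ± 76.2 normalised counts in AAV8-irisin and 7852 ± 156 in AAV8-GFP (SD, n = 5 each).

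The Rbfox genes, whose proteins set neuronal exon choice, were high in every mouse, and none passed the threshold. Rbfox3 (ENSMUSG00000025576.17, chromosome 11, 118489762 to 118911597, minus strand) encodes the protein detected by the NeuN antibody, the usual label of mature neurons. It had 10312, 10327, 10683, 10217 and 10261 normalised counts in AAV8-irisin mice 1 to 5, against 11376, 10972, 10306, 10169.8 and 10207 in AAV8-GFP mice 1 to 5. AAV8-GFP mice 1 and 2 were the highest and the rest overlapped, with a log2 difference of −0.033 (95% interval −0.11 to 0.043), or −0.0070 without AAV8-GFP mouse 1 and −0.020 without AAV8-GFP mouse 2. Rbfox1, whose loss in mice gives seizures, had 10361, 11248, 11016, 10897 and 11042 normalised counts in AAV8-irisin mice 1 to 5, against 9824, 11351, 10663, 11018 and 10612 in AAV8-GFP mice 1 to 5. All 5 AAV8-irisin values lay within the range of AAV8-GFP, and the log2 difference was 0.030 with all mice and 0.00022 without AAV8-GFP mouse 1, the lowest. Rbfox2, also active outside neurons, had 9547, 9735, 8969, 9108 and 9499 normalised counts in AAV8-irisin mice 1 to 5, against 8472, 9830.5, 9230.5, 9273 and 9887 in AAV8-GFP mice 1 to 5, again with AAV8-GFP mouse 1 the lowest. Its log2 difference was 0.0066 and became −0.028 without that mouse.

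Of the 6 Celf genes, 5 were lower and 1 was higher on average in AAV8-irisin (median log2 difference −0.045). Celf2, which is broadly expressed in brain, was the one with a higher mean, with 16983, 17732, 15490.0, 17942 and 18037 normalised counts in AAV8-irisin mice 1 to 5, against 14129, 16899.7, 16252, 17325 and 16516 in AAV8-GFP mice 1 to 5. In AAV8-irisin 3 mice were over the AAV8-GFP maximum, mouse 3 lay below all but AAV8-GFP mouse 1, and AAV8-GFP mouse 1 was lowest. The means were 17237 ± 1061 normalised counts in AAV8-irisin and 16224 ± 1239 in AAV8-GFP (SD, n = 5 each), and the log2 difference was 0.089 ± 0.055 (SE; 95% interval −0.029 to 0.21; limma, adjusted p = 0.942). Without AAV8-GFP mouse 1 the log2 difference was 0.040, and without AAV8-irisin mouse 3 it was 0.13. An exon of Gm26565 lies over Celf2 on the opposite strand, with the same uncertainty as for other antisense pairs here. Celf4, a neuronal member whose loss gives epilepsy in mice, had 19103, 18740.2, 18934, 18668 and 18854 normalised counts in AAV8-irisin mice 1 to 5, against 20174, 19719.8, 21357, 18195 and 18492 in AAV8-GFP mice 1 to 5. The 5 AAV8-irisin mice lay close together inside the range of AAV8-GFP, whose mouse 3 was highest, with a log2 difference of −0.052. It was −0.020 without that mouse. Celf3, a neuronal member, had 6653, 6661, 6793, 6941 and 6372 normalised counts in AAV8-irisin mice 1 to 5, against 7089, 6837, 7182, 6906 and 6642 in AAV8-GFP mice 1 to 5, and AAV8-irisin mouse 5 was the lowest of the 10. Celf1, the founding member, had 8737, 8619, 8209, 8926 and 9564 normalised counts in AAV8-irisin mice 1 to 5, against 8915, 9416, 9189, 8752 and 9149.7 in AAV8-GFP mice 1 to 5. In AAV8-irisin 3 mice were under the AAV8-GFP minimum and mouse 5 lay above the highest. With mouse 3 omitted the log2 difference of Celf1 was −0.020, and with mouse 5 omitted it was −0.075. The log2 differences of Celf3, Celf1, Celf5 and Celf6 were −0.052, −0.045, −0.035 and −0.045, none with an unadjusted p under 0.05. Without AAV8-GFP mouse 1, Celf5 had a log2 difference of −0.067 (limma, adjusted p = 0.982), and it was the only gene of the 47 to join Srsf9 and Nova2 under an unadjusted p of 0.05 in that omission.

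The Nova genes, first known as targets of antibodies in a human neurological disorder, had averages on opposite sides of equality. Nova2 (ENSMUSG00000030411.16, chromosome 7, 18925888 to 18965319, plus strand), the form more common in cortex and hippocampus, had 4206, 4316, 4256, 4310.1 and 4503 normalised counts in AAV8-irisin mice 1 to 5, against 4802, 4531, 4586, 4551 and 4461 in AAV8-GFP mice 1 to 5. In AAV8-irisin 4 of 5 mice were under the AAV8-GFP minimum, and mouse 5 lay among the AAV8-GFP mice. The means were 4318 ± 112 normalised counts in AAV8-irisin and 4586 ± 129 in AAV8-GFP (SD, n = 5 each), and the log2 difference was −0.087 ± 0.033 (SE; 95% interval −0.16 to −0.017; limma, adjusted p = 0.942). Without AAV8-GFP mouse 1 the log2 difference was −0.070. An exon of Gm26821 overlaps Nova2 on the opposite strand, and 30.8% of its 50-base stretches also occur in other annotated transcripts, so its value is uncertain. Nova1, more common in hindbrain and spinal cord, had 1295, 1781, 1452, 1313 and 1274 normalised counts in AAV8-irisin mice 1 to 5, against 1184, 1499.7, 1375, 1200.2 and 1339 in AAV8-GFP mice 1 to 5. AAV8-irisin mouse 2 was the highest and AAV8-GFP mouse 1 the lowest, with a log2 difference of 0.10 and an SE of 0.090 (limma, adjusted p = 0.942). Without AAV8-irisin mouse 2 the log2 difference was 0.019, and without AAV8-GFP mouse 1 it was 0.065. The ratio of Nova2 to Nova1 per kb of exon was 2.53 to 3.69 in AAV8-irisin mice and 3.16 to 4.24 in AAV8-GFP mice.

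The Ptbp genes form a developmental switch, in which Ptbp1 of progenitors and glia gives way to Ptbp2 in neurons. All 3 were higher on average in AAV8-irisin (median log2 difference 0.046), except Ptbp2 without AAV8-GFP mouse 1 and Ptbp3 without AAV8-GFP mouse 4, and none had an unadjusted p under 0.05. Ptbp1 (ENSMUSG00000006498.16, chromosome 10, 79854427 to 79864771, plus strand) had 1339.5, 1218, 1281, 1213 and 1072 normalised counts in AAV8-irisin mice 1 to 5, against 1066, 1215, 1151, 1142 and 1154 in AAV8-GFP mice 1 to 5. In AAV8-irisin 3 mice were over the AAV8-GFP maximum, while mouse 5 was nearly as low as AAV8-GFP mouse 1. The means were 1225 ± 99.8 normalised counts in AAV8-irisin and 1146 ± 53.2 in AAV8-GFP (SD, n = 5 each), and the log2 difference was 0.094 ± 0.059 (SE; 95% interval −0.033 to 0.22; limma, adjusted p = 0.942). Omitting 1 AAV8-irisin mouse at a time gave 0.060 (mouse 1 omitted) to 0.14 (mouse 5 omitted). Exons of 3 genes on the opposite strand, Plppr3 among them, overlap Ptbp1, so its value is uncertain. Ptbp2 had 3698, 3642, 3569, 3532 and 3549.9 normalised counts in AAV8-irisin mice 1 to 5, against 3169.9, 3727, 3694, 3530.0 and 3704 in AAV8-GFP mice 1 to 5. Only AAV8-GFP mouse 1 departed from a narrow range, and the log2 difference was 0.016 with all mice and −0.026 without that mouse. The ratio of Ptbp2 to Ptbp1 per kb of exon was 1.43 to 1.71 in AAV8-irisin mice and 1.54 to 1.66 in AAV8-GFP mice. Ptbp3, first described in blood cells, had 1080.0 ± 64.0 normalised counts in AAV8-irisin and 1048 ± 86.3 in AAV8-GFP (SD, n = 5 each).

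The Mbnl genes, whose proteins are trapped by expanded CUG repeats in human myotonic dystrophy, were all higher on average in AAV8-irisin (median log2 difference 0.067), though Mbnl3 was lower without AAV8-irisin mouse 1, AAV8-irisin mouse 5 or AAV8-GFP mouse 5. Mbnl2 (ENSMUSG00000022139.17, chromosome 14, 120275669 to 120431697, plus strand), the main form in brain, had 8754, 9014, 8849.9, 9193 and 8912 normalised counts in AAV8-irisin mice 1 to 5, against 7691, 8918, 8507, 8849 and 8777 in AAV8-GFP mice 1 to 5. The groups overlapped apart from AAV8-GFP mouse 1, which was lowest by a wide gap, and 2 AAV8-irisin values were over the AAV8-GFP maximum. The means were 8945 ± 168 normalised counts in AAV8-irisin and 8548 ± 504 in AAV8-GFP (SD, n = 5 each), and the log2 difference was 0.067 ± 0.040 (SE; 95% interval −0.018 to 0.15; limma, adjusted p = 0.942). Leaving out AAV8-GFP mouse 1 gave 0.030. An exon of Gm26679 lies over Mbnl2 on the opposite strand, so reads of the pair may be mixed. Mbnl1, prominent in muscle, had 3444, 3116, 3338, 3334 and 3452 normalised counts in AAV8-irisin mice 1 to 5, against 2505, 3354, 3285, 3433 and 3226 in AAV8-GFP mice 1 to 5. Here the deviation of AAV8-GFP mouse 1 was the largest of the 47 genes, and without it the log2 difference of 0.086 became 0.0046. Mbnl3, near the lower end of detection in adult brain, had 47.6, 41.6, 43.8, 29.1 and 50.5 normalised counts in AAV8-irisin mice 1 to 5, against 42.3, 44.6, 45.0, 39.6 and 34.1 in AAV8-GFP mice 1 to 5, with a log2 difference of 0.031 and an SE of 0.17. Without AAV8-irisin mouse 4, its lowest, the log2 difference was 0.16.

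**Figure D2:**
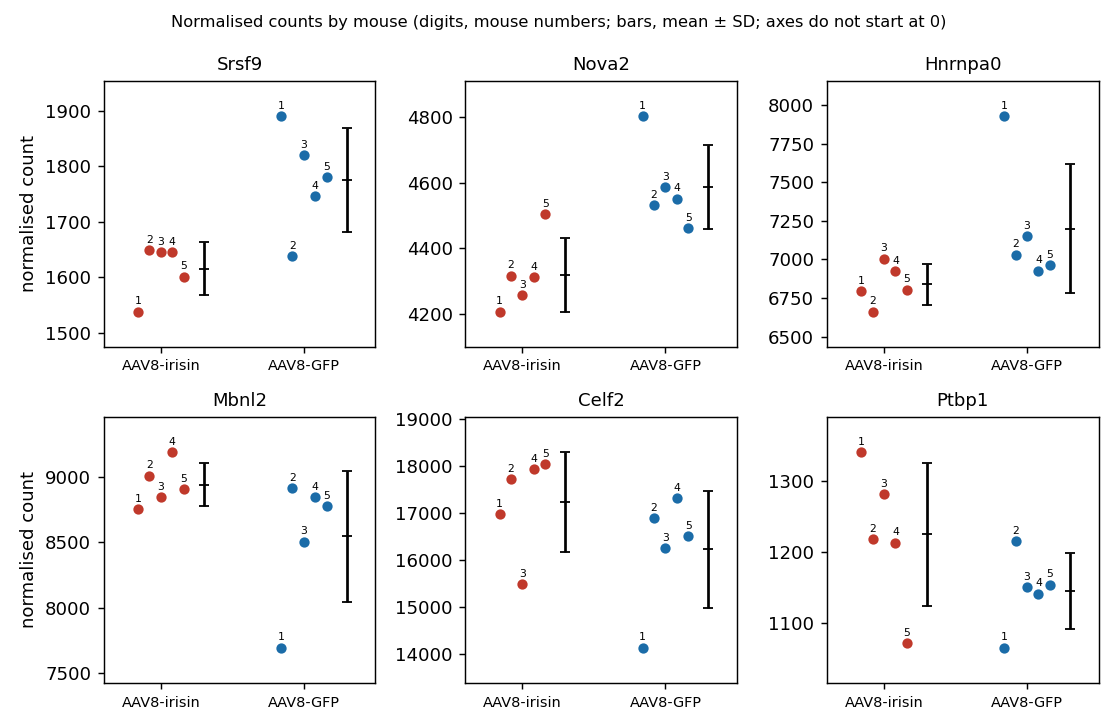
Normalised counts (vertical axes, not starting at 0) of 6 genes in each mouse, with AAV8-irisin left, AAV8-GFP right, digits for mouse numbers and bars for mean ± SD (n = 5 each). Srsf9, Nova2 and Hnrnpa0 have lower means and Mbnl2, Celf2 and Ptbp1 higher means in AAV8-irisin, and AAV8-GFP mouse 1 is the highest or the lowest of the 10 mice in each panel.

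The clearest structure among the 47 genes lay in AAV8-GFP mouse 1 and not between the groups. Its value was the lowest of the 10 mice in 22 genes and the highest in 10. Any other mouse was the lowest in 1 to 7 genes and the highest in 1 to 7. Relative to the mean of the 10 mice, Mbnl1 was at −0.37 on the log2 scale in AAV8-GFP mouse 1, Celf2 at −0.24, Nova1 at −0.20, Hnrnpa3 at −0.19 and Ptbp2 at −0.17. At the other end Hnrnpa0 was at 0.18, Srsf9 at 0.16, Rbfox3 at 0.12 and Nova2 at 0.11.

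In the medians, the direction in AAV8-GFP mouse 1 went with exon length. The 23 genes with more than 5953 bp of annotated exon had a median deviation of −0.080 in this mouse, and the other 24 had 0.027. Single genes departed from this. Nova2, with 8372 bp, was at 0.11, the highest of the 10 mice. Hnrnpa3 and Rbfox1, with 5396 and 4400 bp, were at −0.19 and −0.14, the lowest of the 10. In the other 9 mice the medians of the longer genes lay between −0.0045 and 0.028 and those of the shorter between −0.032 and 0.016, so the shorter genes of AAV8-GFP mouse 1 did not stand out in size of deviation. Among all genes tested that have an annotated length, the medians in this library were −0.088 for the 5051 genes above that length and 0.039 for the 12279 others. The part of transcript length in the group differences of Mbnl1, Celf2 or Hnrnpa0 was not tested. Without AAV8-GFP mouse 1, 13 of 47 genes were higher on average in AAV8-irisin and the median log2 difference was −0.014. The sign differed from that with all mice in 10 genes, 9 of them now lower in AAV8-irisin, and single differences ran from −0.11 (Srsf9) to 0.068 (Ptbp1). In that omission 3 of 47 had an unadjusted p under 0.05, beside 4.85% of all genes, and 0 passed the adjusted threshold by limma.

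**Figure D3:**
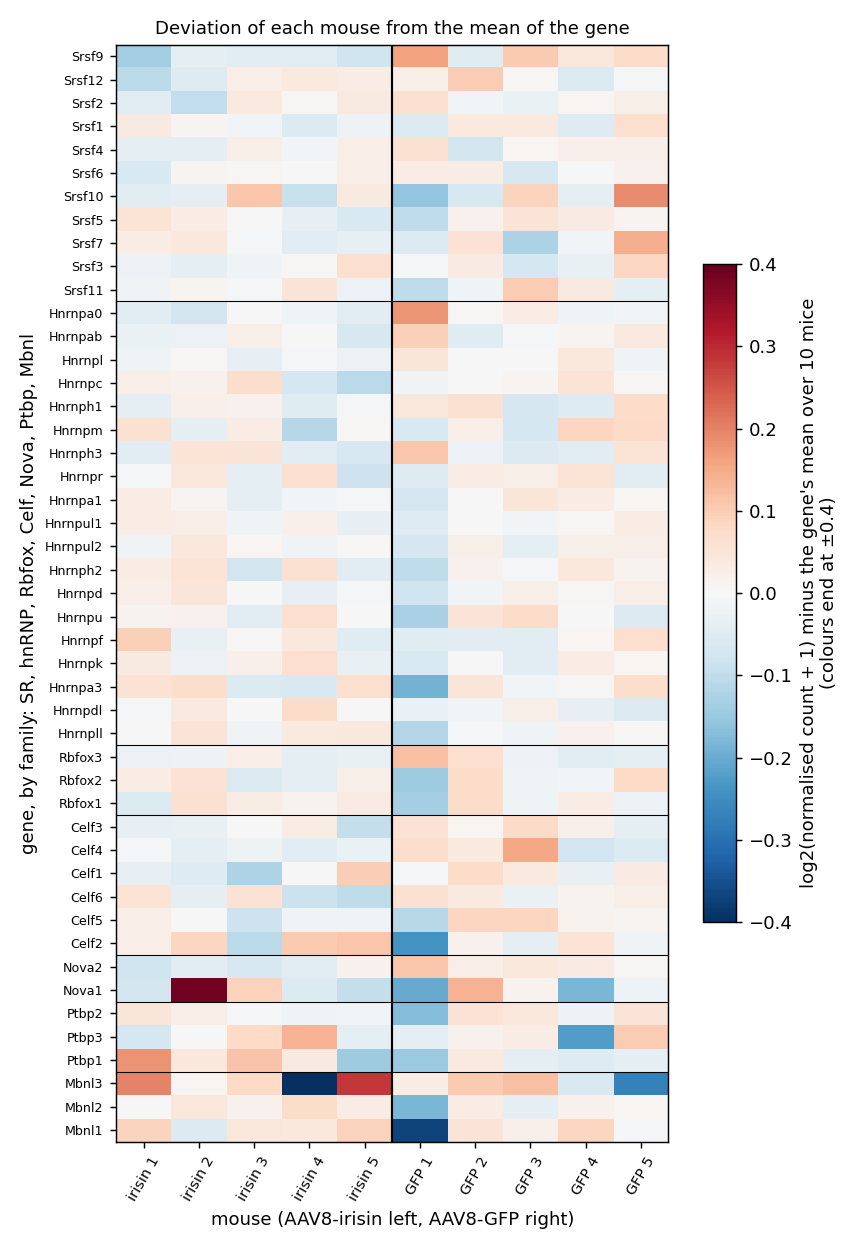
Log2(normalised count + 1) of each mouse minus the mean of the gene over the 10 mice (colour, ending at ±0.4), with genes in rows by family and mice in columns, AAV8-irisin left of AAV8-GFP. The column of AAV8-GFP mouse 1 holds the lowest value in 22 rows and the highest in 10.

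**Figure D4:**
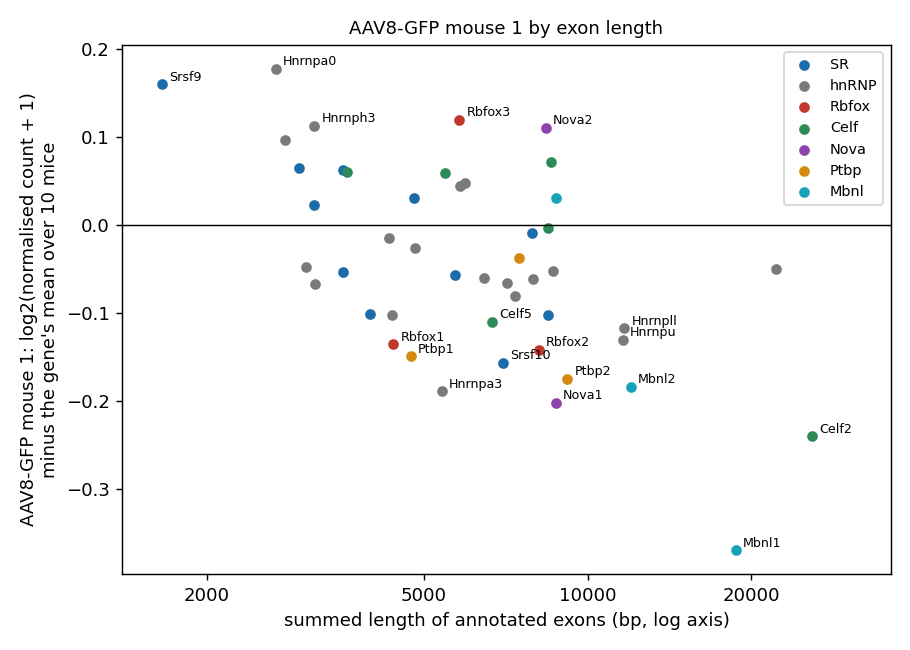
Deviation of AAV8-GFP mouse 1 from the mean of each gene over 10 mice (vertical axis, log2 scale) against the summed length of the gene's annotated exons (bp, log axis), 1 point a gene and colours by family. Mbnl1 and Celf2, with 18717 and 25884 bp of exon, lie lowest, and Hnrnpa0 and Srsf9, with 2678 and 1653 bp, lie highest.

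Levels per length spread far more between genes than between mice. Normalised counts were divided by the summed length of all annotated exons, which for a gene with several isoforms can exceed any single transcript and so understate its level. The highest mean level over the 10 mice was that of Hnrnpa1, at 3154 ± 72.3 normalised counts per kb (SD, n = 10), followed by Hnrnpa0 at 2621 ± 129.9, Srsf5 at 2619.5 ± 91.4, Rbfox1 at 2455 ± 103, Hnrnpa3 at 2309.6 ± 129 and Celf4 at 2239.8 ± 110.3. Hnrnpa1 stood above the range of Hnrnpa0, while Hnrnpa0, Srsf5, Rbfox1, Hnrnpa3 and Celf4 each overlapped the next in range. At the low end were Hnrnpr at 191 ± 6.72, Mbnl1 at 174 ± 15.0, Nova1 at 157 ± 20.0, Ptbp3 at 142 ± 9.84 and Mbnl3 at 4.78 ± 0.721 normalised counts per kb. Of the 46 neighbouring pairs in the order of levels, 38 overlapped in range and 8 did not, so most neighbours cannot be ranked. The ratio of Mbnl2 to Mbnl1 per kb was 3.97 to 4.51 in AAV8-irisin mice and 4.02 to 4.79 in AAV8-GFP mice, and that of Rbfox3 to Rbfox1 was 0.694 to 0.753 in AAV8-irisin mice and 0.698 to 0.876 in AAV8-GFP mice. In both ratios the 2 groups overlapped.

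**Figure D5:**
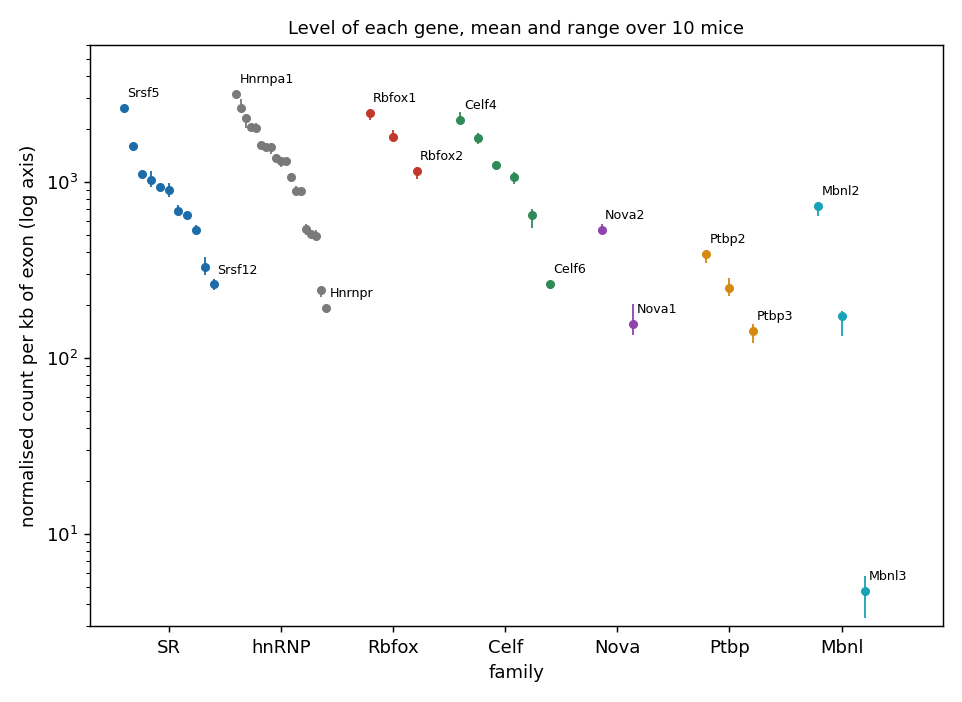
Normalised counts per kb of annotated exon (vertical log axis) of the 47 genes by family, with points for the mean and bars for the range over the 10 mice. Hnrnpa1 is highest, at 3154, and Mbnl3 is lowest, at 4.78.

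Annotated transcripts show how much isoform detail a count per gene leaves out. In GENCODE M21, 9 of 11 SR genes have at least 1 transcript marked as a target of nonsense-mediated decay, and so do 9 of 19 hnRNP genes, 3 of 3 Ptbp genes and 3 of 6 Celf genes, while no Rbfox, Nova or Mbnl gene does. Over all 47 the share was 51.1%, beside 26.8% of the 15145 protein-coding genes tested. Transcripts with a retained intron were annotated for 72.3% of the 47 and for 54.7% of protein-coding genes tested. The median number of annotated transcripts was 9 for the 47 and 5 for protein-coding genes tested, and the shares were not matched for it. The 47 genes lie on 19 chromosomes. Exons of 18 overlap an exon of a gene on the opposite strand and those of 4 one on their own strand, and 14 share over 10% of their 50-base stretches with another annotated gene, Hnrnpf (61.9%) and Srsf4 (39.5%) the most, so the values of these genes are uncertain.

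The rest of the splicing machinery gave no call either. Of 137 further genes on lists of splicing and decay factors, 135 passed the filter, 0 passed the adjusted threshold by limma, and 5 had an unadjusted p under 0.05, 1 with a higher mean in AAV8-irisin (Crnkl1) and 4 with a lower one (Snrnp70, Lsm6, Srrm3 and Ewsr1), beside 4.49% of all genes tested, or 2.28% higher and 2.21% lower. The median log2 difference was −0.0075. Factors that recognise the ends of introns with the U1 and U2 particles had 16 of 22 lower means (median −0.031). Snrnp70, the U1 protein that contacts SR proteins, had 14317, 14349, 14629.5, 14322 and 14526 normalised counts in AAV8-irisin mice 1 to 5, against 16395, 14734, 15111, 15155 and 14788 in AAV8-GFP mice 1 to 5. It was the 1 gene of these 135 whose groups did not overlap, beside 0.803% of all genes tested, by limma with a log2 difference of −0.078 (adjusted p = 0.942), and mouse 1 was again the highest of AAV8-GFP. Without that mouse it was −0.051. Snrpa, another U1 protein, had a log2 difference of −0.090 with all mice and −0.049 without AAV8-GFP mouse 1. Sm and Lsm proteins, which form the ring around spliceosomal RNAs, had 11 of 15 lower means (median −0.029). Lsm6 had 797 ± 51.7 normalised counts in AAV8-irisin and 932 ± 94.5 in AAV8-GFP (SD, n = 5 each), a log2 difference of −0.22 (limma, adjusted p = 0.942), and Lsm4 a log2 difference of −0.14, or −0.070 without AAV8-GFP mouse 1.

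Among SR-like proteins the median was −0.010 over 16 genes, and Srrm3, which promotes neuronal microexons, had 2069.9 ± 74.2 normalised counts in AAV8-irisin and 2241 ± 113 in AAV8-GFP (SD, n = 5 each). The groups overlapped, with a log2 difference of −0.11 (limma, adjusted p = 0.942), and Bclaf1 had 0.065, or 0.043 without AAV8-irisin mouse 4. Kinases of SR proteins and nuclear importers had a median of −0.012 over 11 genes, with log2 differences of 0.14 for the importin Tnpo1, or 0.059 without AAV8-GFP mouse 1, and 0.072 for the kinase Clk4. Other RNA-binding regulators had a median of 0.012 over 34 genes. Ewsr1 and Taf15, related RNA-binding proteins of the FET family, had log2 differences of −0.088 and −0.083, the second of which was −0.051 without AAV8-GFP mouse 1. Hnrnpa2b1 had 15059 ± 336 normalised counts in AAV8-irisin and 15231 ± 514 in AAV8-GFP (SD, n = 5 each). The catalytic core and tri-snRNP had a median of 0.022 over 24 genes, with 0.15 for Crnkl1 and −0.11 for Sart1, or −0.058 for Sart1 without AAV8-GFP mouse 1. Decay and exon junction factors had a median of 0.00024 over 13 genes, with 0.094 for Upf3b and −0.094 for Rbm8a. Without 1 mouse at a time these lay between 0.057 and 0.13 for Upf3b (lowest without AAV8-GFP mouse 3) and between −0.15 and −0.053 for Rbm8a (with AAV8-irisin mouse 1 or 4 omitted). None of these lists was tested as a set.

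The summed level of each cell type marker list given here overlapped between the groups, and no marker on them passed the adjusted threshold by limma. The summed normalised counts of 6 neuronal markers were 218097 to 228560.0 in AAV8-irisin and 204372 to 230608 in AAV8-GFP, and those of 6 markers of hippocampal granule and pyramidal cells were 26967 to 28108 in AAV8-irisin and 26695 to 28409 in AAV8-GFP. They were 136587 to 143712 in AAV8-irisin and 128043 to 166477 in AAV8-GFP for 6 astrocyte markers, 117582 to 140476 in AAV8-irisin and 101509 to 135382 in AAV8-GFP for 6 oligodendrocyte markers and 11582 to 14309.9 in AAV8-irisin and 11439 to 16104 in AAV8-GFP for 6 microglial markers. On average in AAV8-irisin with all mice included, 5 of 6 neuronal and 6 of 6 oligodendrocyte markers were higher. By the same count 5 of 6 astrocyte and 6 of 6 microglial markers were lower. AAV8-GFP mouse 1 held the lowest value of the 10 mice in Snap25 (59623), Syt1 (49008.5), Map2 (34410) and Syp (43673). It held the highest in Tubb3 (7879) and Stmn2 (9779). The neuronal count of higher means depends on that mouse. With all mice the granule and pyramidal cell markers went the other way from the neuronal list, with 1 of 6 higher and 5 lower. This contrast between the lists also depends on AAV8-GFP mouse 1. Of all genes tested, 50.5% had a higher mean. Oligodendrocyte precursors (4230.2 to 4655 in AAV8-irisin and 4055 to 4932 in AAV8-GFP, 4 genes) and endothelium (4771 to 5945 in AAV8-irisin and 5059 to 6792 in AAV8-GFP, 5 genes) overlapped too. Of 5 choroid plexus markers, 4 passed the filter and Kcne2 did not. The 4 were all higher on average in AAV8-irisin, and summed to 900.2 to 2556 in AAV8-irisin and 711 to 964 in AAV8-GFP, ranges that overlap. Kl alone had 788 to 919.8 in AAV8-irisin and 650.1 to 879 in AAV8-GFP, most of the sum outside AAV8-irisin mouse 4. Folr1 lay near the filter, at 2.09 to 18.8 over the 10 mice. Ttr had 86.2, 12.3, 162, 1528 and 56.6 normalised counts in AAV8-irisin mice 1 to 5, against 27.6, 10.1, 14.1, 48.3 and 47.4 in AAV8-GFP mice 1 to 5. AAV8-irisin mouse 4 stood far above the rest and also set the highest sum, and the log2 difference of Ttr was 2.10 with all mice and 1.16 without that mouse. The counts of 3 thalamus markers summed to 2205 to 2317 in AAV8-irisin and 2130.5 to 2438 in AAV8-GFP. The part of cell makeup in the differences of the splicing factor genes was not tested.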

How the data were processed

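The values are normalised counts, a signal per gene and library that the authors deposited in 1 table; bcl2fastq 2.17, DESeq2 and the build mm10 are named in the submitters' processing notes. How reads were aligned and counted, with which strand setting and gene models, is not given in the sources used here. Per the labels' protocols, RNA was captured on oligo(dT) beads, so RNA without a poly(A) tail is poorly represented. A shift common to every gene is removed by such scaling, and oligo(dT) capture makes values depend on RNA integrity.

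Groups follow the treatment label, with 5 separately titled mice each. Genes with at least 10 in at least 5 of 10 libraries (17556) were converted to log2(value + 1) and fitted with limma 3.58.1 in R 4.3.3 (group as factor, eBayes with trend, two-sided, Benjamini-Hochberg over all genes, threshold 0.05). Differences (log2, AAV8-irisin less AAV8-GFP) are on that scale and understate changes of low genes. The test was checked on simulated counts. The genes and lists were chosen with earlier results of these data known. Results of 1 further marker list are not reported here. Of the 47, genes given by mouse were the 12 of smallest unadjusted p, the highest and the most variable gene of each family and 7 switch factors, besides any with groups that did not overlap or past the threshold. Of pathway lists, the 2 genes of smallest unadjusted p were named; Ttr is given by mouse after its values were seen, and the omissions for list genes were chosen after seeing the data. Alternatives were quantile normalisation, median ratio rescaling, a pseudocount of 5, no filter, a filter of 50, no trend, array weights, a replicate block and leaving out each mouse. Positions, exon lengths and 50-base stretches come from GENCODE M21 (mm10), and promoters from RefSeq (GRCm38.p6).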

Additional observations from a re-analysis of the deposited data

Results flagged for a closer look

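In 6 of 94 groups of 5 mice (47 genes in both groups) the highest or lowest mouse lay far from the others relative to the range of its group. Chance alone marks about 1 in 20 such groups. In 4 of the 6 the mouse was AAV8-GFP mouse 1. It had 7928 normalised counts of Hnrnpa0, where the other 4 mice of AAV8-GFP had 6927 to 7152. It had 2600.1 of Hnrnpll, where they had 2786 to 2857, 2505 of Mbnl1, where they had 3226 to 3433, and 9730.1 of Srsf5, where they had 10529 to 10813. In AAV8-irisin, mouse 3 had 10683 normalised counts of Rbfox3, above 10217 to 10327 in the other 4 mice, and mouse 1 had 4301 of Srsf6, below 4496 to 4575.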

How the results depend on the processing

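Under 18 alternatives (8 with all mice, 10 without a mouse each), 0 of the 47 genes passed the adjusted threshold. Of all genes, 0 passed except with no filter on low values, where 1 of 26538 genes passed, Gm49383, named after its values were seen (listed at 0 in all 5 AAV8-irisin mice and at 2.66 to 13.9 normalised counts in AAV8-GFP). Changing the filter, dropping the trend and adding the replicate block do not alter the log2 difference of a gene, so they could not change a sign. Srsf9 and Nova2 kept their sign in all 18, and quantile normalisation moved the median of all genes by less than 0.1 (log2). At an unadjusted p under 0.05 there were 2 of 47 in the 8 alternatives with all mice and 1 to 3 without a mouse, 1 of them without AAV8-irisin mouse 1. Of all genes tested, 4.49% had such a p by limma in the main fit and 4.85% without AAV8-GFP mouse 1. The median log2 difference of the 47 genes ran from −0.0138 to 0.00297 without a mouse, and that of the hnRNP genes from −0.0111 to 0.0145, its lowest without AAV8-GFP mouse 1 (with array weights it was −0.0000731). Of the 22 splicing factor genes given by mouse, 15 kept their sign in every alternative, as did 373 of 395 values, a count that includes the settings that could not change a sign. The other genes had differences near 0 and ranges, without a mouse, of −0.0234 to 0.00522 (Hnrnpa1), −0.0138 to 0.0513 (Hnrnpa3), −0.0353 to 0.158 (Mbnl3), −0.0260 to 0.0324 (Ptbp2), −0.0280 to 0.0277 (Rbfox2), −0.0477 to 0.0385 (Srsf10) and −0.0312 to 0.00977 (Srsf5). With array quality weights Ptbp2 had −0.00642 and Rbfox2 −0.0114, and the cause was not tested. Same-numbered mice did not deviate together (correlations of −0.0891 to 0.0297, 1 of 5 best with its own number), and no label says that a number is shared. Whether same-numbered mice shared any handling was not tested. With the mouse number as a replicate block, the median of the 47 genes was −0.0051 and 0 passed the adjusted threshold. Depth is an estimate, and Mbnl3 is the gene that low counts limit most.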
